A study of Macaca mulatta with 2 samples.

Results

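Protease inhibitors and plasminogen activators were described in 2 cultures of Sertoli cells from rhesus macaques (Macaca mulatta). Members were the non-control probes of the array whose gene name begins with SERPIN, SPINK, SPINT or WFDC, or is CST followed by a number or a single letter, or is SLPI, PI3, A2M, A2ML1, SPINLW1, EPPIN, PLAU, PLAUR, PLAT or PRSS36. The rule used names and no measured value, but it was set with earlier results of these data known. It took 82 of the 21509 gene names on the array, with 112 probes in 142 spots. EPPIN is listed there under its older name SPINLW1. Of the 82 names, 74 occur as a name or synonym in a RefSeq gene table of the macaque, and SPINK5L3 is SPINK13 there.

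Sertoli cells are the somatic cells that line the seminiferous tubule and nurse the germ cells. The pubertal culture came from juvenile males, 18 to 22 months old, whose puberty was triggered by pulses of gonadotropin-releasing hormone (GnRH, 0.15 µg/min for 2 min with 3 h between pulses) through a catheter over 4 to 5 weeks. The infant culture came from males younger than 3 months, for which no GnRH is named. Both cultures received testosterone (100 nM) and follicle-stimulating hormone (FSH, 5 ng/ml) for 12 h before RNA was extracted, and untreated cultures were not analysed here, so the response to the hormones was not measured. The comparison asks how hormone-treated Sertoli cell cultures from the pubertal and the infant testis differ. One array was hybridised per culture, and the number of animals behind each culture is not stated by the labels. No test between the groups was therefore possible, and age, GnRH, the animals and the culture cannot be told apart.

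Proteases that cut their substrates outside the cell are held in check by families of inhibitors that trap or block them. Serpins are cleaved by their target and lock onto it, cystatins plug the active site of cysteine proteases such as the cathepsins, and the WAP, Kazal and Kunitz families are small disulfide-linked domains that block serine proteases. The plasminogen activators PLAU (urokinase type) and PLAT (tissue type) turn plasminogen into the broad protease plasmin. Sertoli cells are known to secrete plasminogen activators, cystatin C and alpha-2-macroglobulin, and this secretion has been tied to the release of sperm and to the passage of germ cells through the junctions between Sertoli cells.

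Levels are given as the log2 of the probe signal relative to the 75th percentile of the signals on the same array, so that 0 is that percentile, and differences as pubertal minus infant on the same log2 scale. The scanner software's error model gave each difference a standard error (SE), which covers the array and neither the animals nor the culture. The probes are human 60-base oligonucleotides, so levels of different genes were not compared. A gene counted as detected on an array where at least 50% of the spots of a probe were flagged well above background. Of all gene spots, 54.9% were so flagged in the pubertal and 54.8% in the infant culture. No gene spot was saturated, and the levels of the 14243 genes detected on both arrays had a correlation of 0.956 across genes, which are not independent replicates.

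Of the 82 members, 34 were detected on both arrays, 5 on the pubertal array alone, 2 on the infant array alone and 41 on neither. Detection on both arrays thus held for 41.5% of the members against 66.3% of all gene names with values. Detection on the pubertal array alone held for 4.21% of all names and on the infant array alone for 3.13%. Among the 34 members measured on both arrays, 11 were at least 2-fold higher in the pubertal culture (32.4%, against 7.32% of all genes measured on both) and 3 were at least 2-fold lower (8.82%, against 6.32%). At least 2-fold different in either direction were 14 members (41.2%) against 13.6% of all genes. A difference of at least 4-fold was reached by 5 members (14.7%) against 2.53% of all genes. The median difference of the 34 was 0.06, beside -0.06 for all genes, with 18 members positive and 16 negative. This median was -0.10 with scaling on the array median. With scaling on spike-in probes, which moved the median of all genes up by 0.90, it was 0.96. The upward share of the members past 2-fold was then 88.9% in place of 78.6%. Of all genes, 5524 were then at least 2-fold higher and 144 lower, in place of 1042 and 900. The same scaling turned 13 members with small negative differences positive. These were PLAT, PLAUR, PI3, CSTB, SPINK7, WFDC1, WFDC3, SERPINA3, SERPINA6 and the 4 clade B serpins. In RNA of a whole culture, a smaller share of cells of a type and less RNA per cell cannot be told apart.

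**Figure D1:**
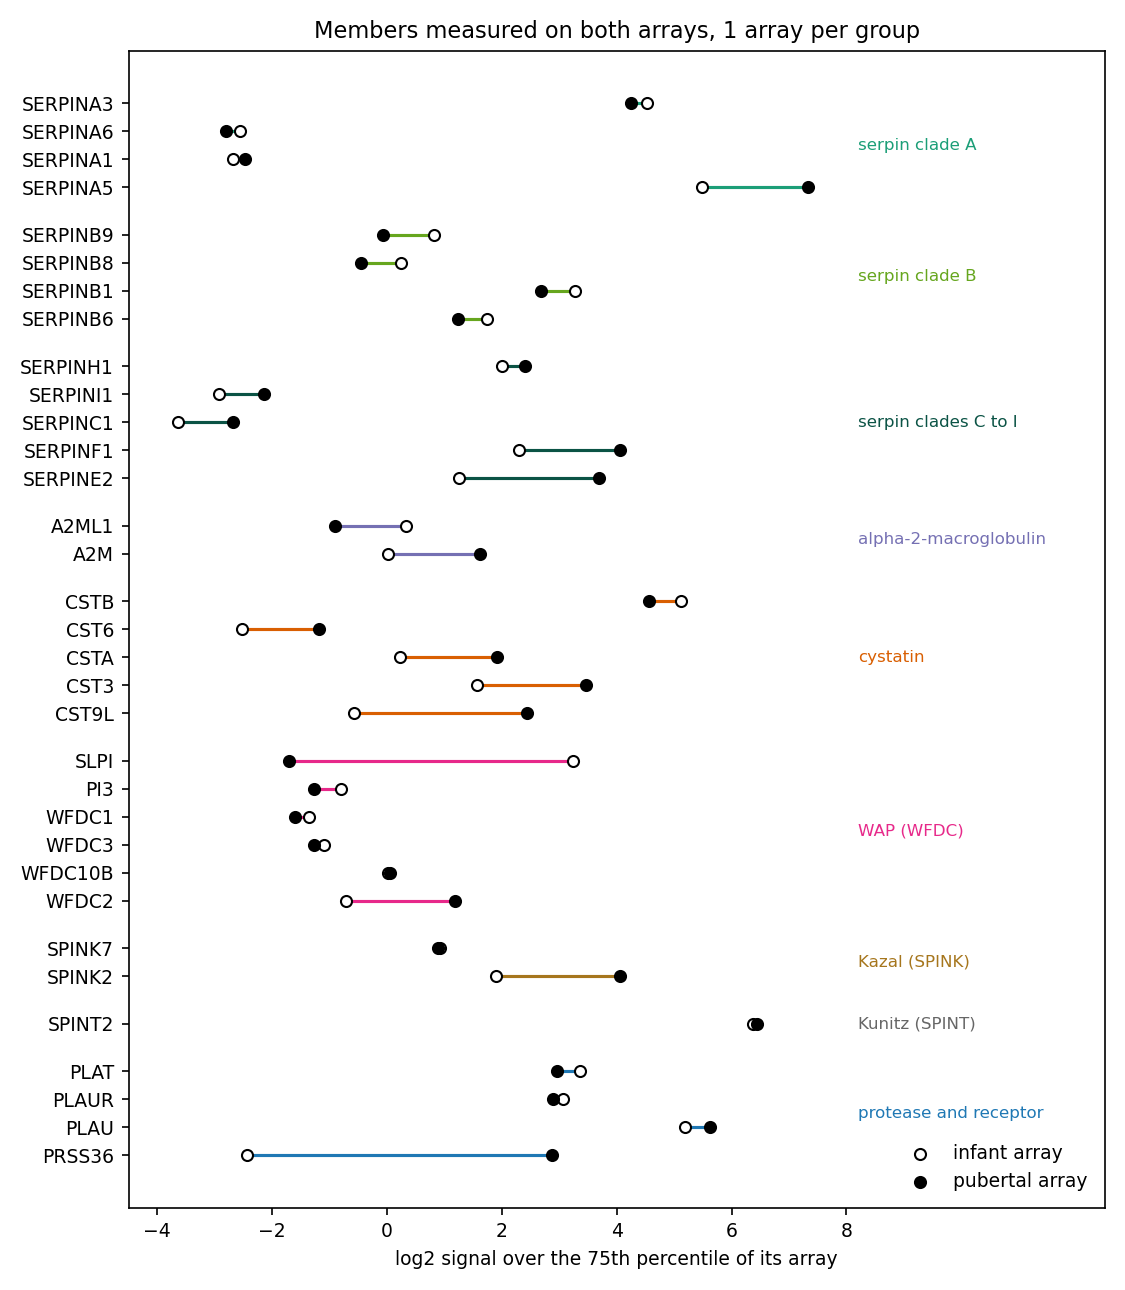
Level of 33 of the 34 members measured on both arrays (horizontal axis: log2 signal over the 75th percentile of its array; filled circles: pubertal, open circles: infant; 1 array per group). Lines join both levels of a gene and are coloured by family. The longest lines are those of PRSS36, from -2.43 in the infant to 2.87 in the pubertal culture, and SLPI, from 3.24 down to -1.71.

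Probe sequences show part of what was hybridised in the family with the largest downward difference. WAP domains are built around disulfide bonds, so their coding sequence is rich in cysteine codons. Probes of SLPI, WFDC2 and PI3 are printed because the former pair lay far apart in opposite directions and PI3 sits close to SLPI in the genome. The SLPI sequence is that of its second probe, detected in the infant culture alone (0.47, against -4.96 in the pubertal). The SLPI difference of -4.95 comes from its other probe, which is not printed. PRSS36, a serine protease, is printed because it had the largest difference of all members. Capitals mark the codons TGT and TGC, read on the printed strand in the stop-free frame that holds most of them.
SLPI: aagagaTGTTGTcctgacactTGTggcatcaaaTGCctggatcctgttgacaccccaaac
WFDC2, first probe: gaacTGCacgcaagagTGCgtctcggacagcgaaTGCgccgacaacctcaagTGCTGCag
WFDC2, second probe: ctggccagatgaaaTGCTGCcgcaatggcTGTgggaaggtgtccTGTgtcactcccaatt
PI3: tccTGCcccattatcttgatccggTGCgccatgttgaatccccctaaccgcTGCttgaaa
PRSS36: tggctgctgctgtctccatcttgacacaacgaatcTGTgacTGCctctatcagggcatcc
The printed SLPI probe holds 4 such codons, the WFDC2 probes 5 and 4, the PI3 probe 3 and the PRSS36 probe 2. Of the 50238 gene probes on the array, 1.19% hold at least 4 such codons in a stop-free frame, 5.24% at least 3 and 19.1% at least 2.

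The plasminogen activators themselves differed by less than 2-fold. PLAU had a level of 5.63 in the pubertal and 5.18 in the infant culture, a difference of 0.44 (SE 0.20). PLAT had 2.96 and 3.36, a difference of -0.40 (SE 0.20), and PLAUR, the receptor that holds urokinase at the cell surface, had 2.90 and 3.07, a difference of -0.17. All 3 were detected on both arrays, with PLAU slightly higher and PLAT and PLAUR slightly lower in the pubertal culture. With scaling on spike-in probes the difference of PLAU was 1.35, past 2-fold, and those of PLAT and PLAUR turned positive. PRSS36, a serine protease with several protease domains (also called polyserase-2) and not a known part of the plasminogen system, had a level of 2.87 in the pubertal and -2.43 in the infant culture. That is a 39.5-fold difference (log2 5.30, SE 0.22), and it ranked 9 from the highest among the 14243 genes. It rests on a single spot per array, and its log2 difference was 4.30 with normexp background correction and 6.21 with scaling on spike-in probes.

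SERPINE2 and SERPINA5, inhibitors that can block plasminogen activators, were higher in the pubertal culture. SERPINE2 (protease nexin 1), which blocks thrombin and urokinase at the cell surface, had 3.69 and 1.25 and was 5.41-fold higher (difference 2.43, SE 0.20). Its difference ranked 148 from the highest among the 14243 genes. SERPINA5 (protein C inhibitor), which blocks activated protein C and can also block plasminogen activators, had 7.33 and 5.49, a 3.57-fold difference (log2 1.84, SE 0.14) that its separate probes gave as 1.81 and 1.86. SERPINB2 (plasminogen activator inhibitor 2) was not detected on either array, with probe levels of -4.41 and -6.46 in the pubertal and -3.94 and -6.51 in the infant culture. SERPINF2 (alpha-2-antiplasmin), the inhibitor of plasmin itself, was detected on the pubertal array alone. Its level was -3.38 there against -4.58 in the infant culture, a difference of at least 1.98-fold. A bound of this kind sets the measured level against the higher of the gene's own signal and the lowest detected signal of the other array (-4.29 pubertal, -4.36 infant).

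**Figure D2:**
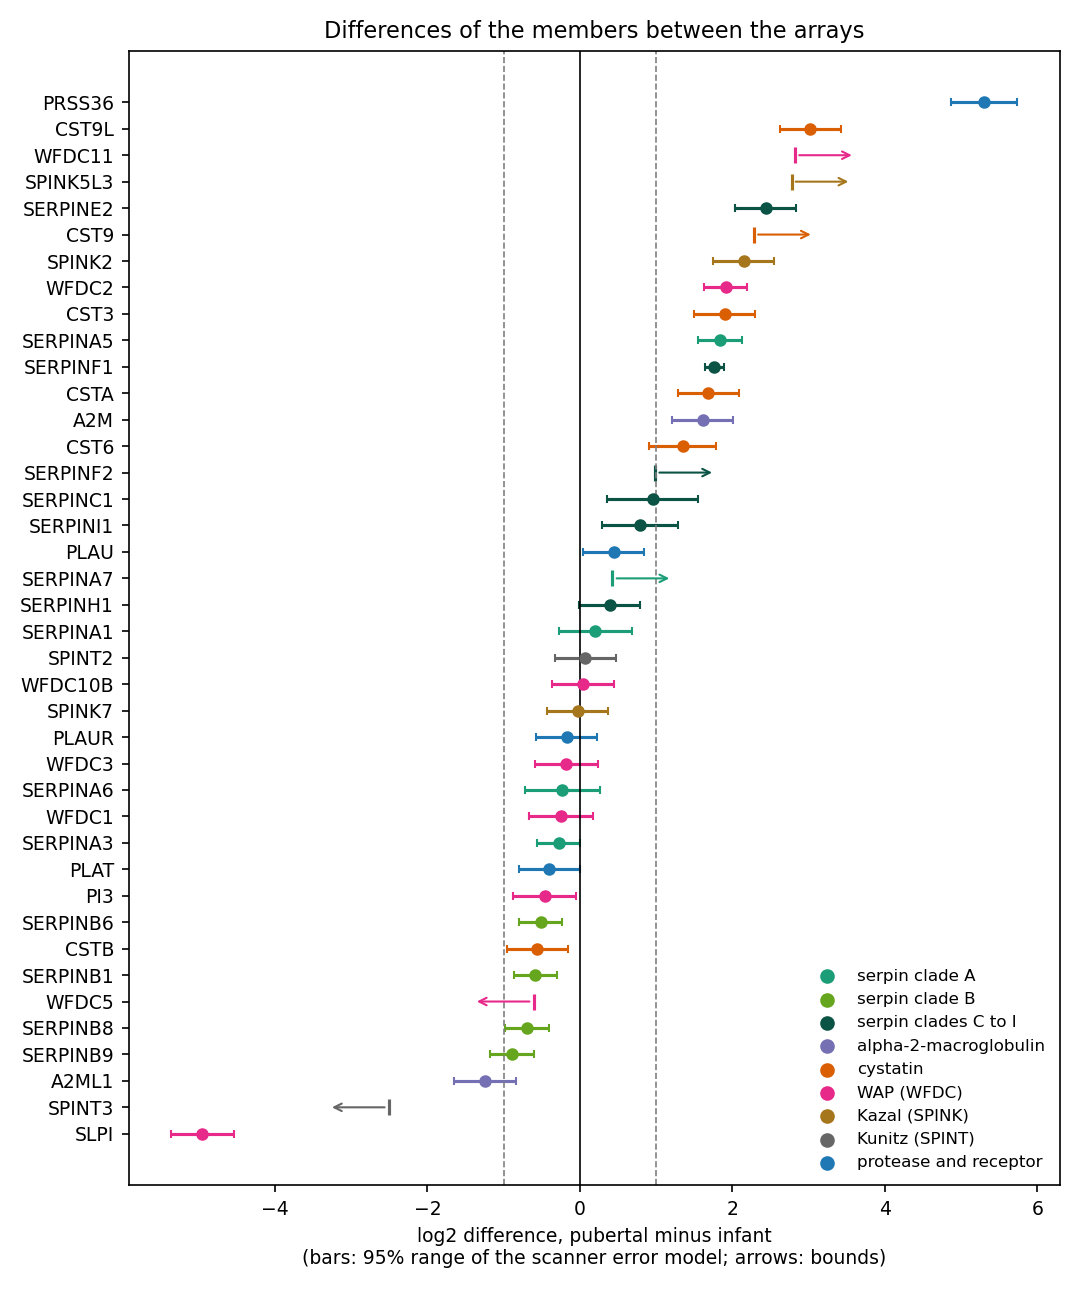
Difference of the members between the arrays (horizontal axis: log2, pubertal minus infant; dashed lines: 2-fold). Circles are 33 of the 34 members measured on both arrays, with bars for the 95% range of the scanner error model, which covers the array alone; arrows start at the bound of the 7 members detected on 1 array. PRSS36 at 5.30 and SLPI at -4.95 are the outermost circles.

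Serpins of the remaining clades differed in both directions. Of the 10 serpins of clades C to I, 6 were measured on both arrays, with 5 positive differences, a median of 0.87, 2 at least 2-fold higher and 1 lower. SERPINF1 (pigment epithelium-derived factor), a secreted serpin that blocks the growth of vessels and does not inhibit proteases, had 4.06 and 2.3 and was 3.40-fold higher (difference 1.76, SE 0.06). Its probe lies in 11 spots on each array. These spots ranged from 3.95 to 4.23 in the pubertal culture (mean 4.06 ± 0.08, SD over spots) and from 1.98 to 2.41 in the infant culture (mean 2.3 ± 0.12), so the spots of the arrays did not overlap. Spot by spot the difference ran from 1.64 to 2.06. Such spots repeat the measurement of one RNA and are not replicates of a culture. SERPINC1 (antithrombin) had a difference of 0.96 (SE 0.30) at low levels of -2.68 and -3.64. SERPINI1 (neuroserpin, an inhibitor of PLAT) had one of 0.78 and SERPINH1, a chaperone of collagen with no known protease target, one of 0.39. SERPIND1, SERPING1 and SERPINI2 were not detected.

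Serpin probes of several clades carry a common run of letters. The motif TTCATNGG can encode part of a stretch shared near the end of serpin proteins. It occurred in 4 of the 49 serpin probes (8.16%), against 189 of all 50238 gene probes (0.376%). On the reverse strand it occurred in 0 serpin probes and 212 of all probes. The probes of SERPINE2 and SERPINF1 are shown, with the motif in capitals, because both genes were at least 2-fold higher in the pubertal culture. The remaining serpins with the motif, SERPINA1 and SERPINC1, had differences of 0.20 and 0.96, under 2-fold.
SERPINE2: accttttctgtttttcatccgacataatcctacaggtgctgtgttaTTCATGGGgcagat
SERPINF1: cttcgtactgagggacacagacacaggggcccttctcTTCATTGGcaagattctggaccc
A match describes the probe and is no measurement of the protein. Positions of the probes in a genome were not used here.

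Of the 12 clade A serpins, 4 were measured on both arrays, and SERPINA5 alone of these was past 2-fold. SERPINA1 (alpha-1-antitrypsin) had a difference of 0.20, SERPINA6 (the carrier of cortisol in blood) one of -0.23 and SERPINA3 (antichymotrypsin) one of -0.28. SERPINA3 lies next to SERPINA5 in the macaque gene order with no protein-coding gene between them. SERPINA3 had mean levels of 4.26 and 4.53. Its separate probes lay far apart, at 6.62 and 1.89 in the pubertal and 6.76 and 2.31 in the infant culture. SERPINA7, the carrier of thyroid hormone, was detected on the pubertal array alone, at -3.94 against -5.88. Its bound is 1.34-fold. A further probe with 1 spot was detected on neither array (-6.45 and -6.60). Of its 2 probes with many spots, the first had 8 of 10 spots well above background in the pubertal culture (mean -3.95 ± 0.20, SD over spots) and 0 of 11 in the infant culture (-6.12 ± 0.65). The second had 8 of 11 (-3.93 ± 0.36) and 0 of 11 (-5.65 ± 0.52). For both probes, every pubertal spot lay above every infant spot.

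**Figure D3:**
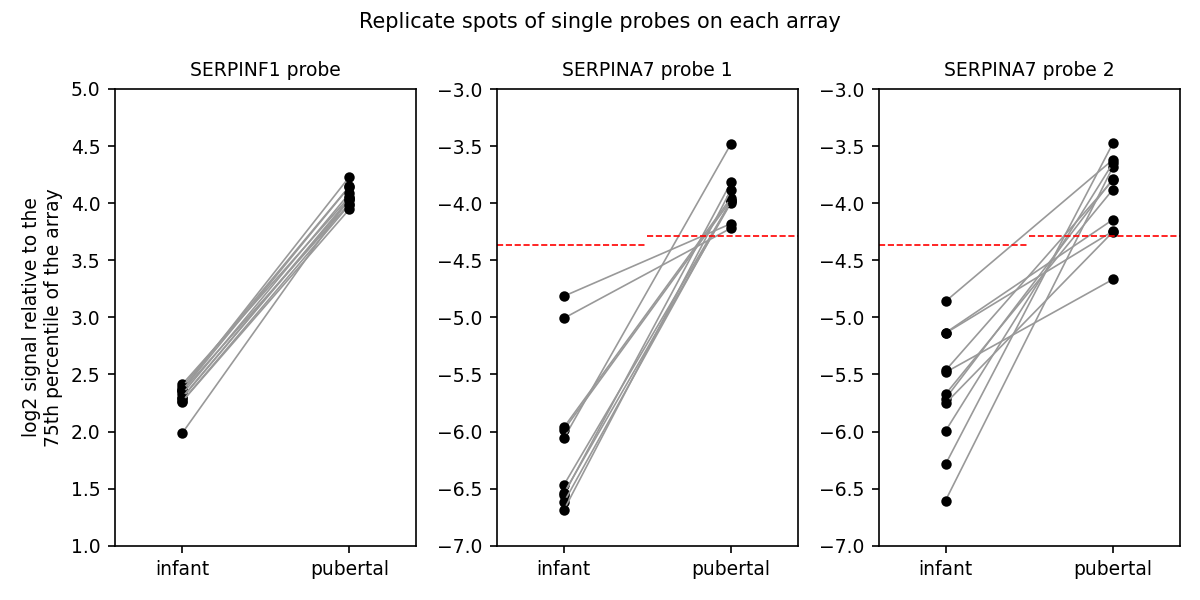
Replicate spots of 1 probe of SERPINF1 and 2 probes of SERPINA7 (vertical axis: log2 signal over the 75th percentile of its array; grey lines join the same spot position on both arrays; dashed lines: lowest detected signal of each array). A spot position with an outlier flag is left out. SERPINF1 lies between 3.95 and 4.23 in the pubertal and between 1.98 and 2.41 in the infant culture, and the infant spots of SERPINA7 all lie under the dashed line.

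The 4 clade B serpins measured on both arrays were all lower in the pubertal culture, by less than 2-fold, and all higher with scaling on spike-in probes. These are inhibitors that act mostly inside the cell. Their differences ran from -0.89 to -0.52 with a median of -0.64, and their median turned positive (0.26) with scaling on spike-in probes. SERPINB9, the inhibitor of granzyme B, had -0.07 and 0.82 (difference -0.89), with probes that gave -1.46, which alone is past 2-fold, and -0.33. SERPINB1 (an inhibitor of neutrophil elastase) and SERPINB6 had differences of -0.59 and -0.52. SERPINB6, SERPINB9 and SERPINB1 are close neighbours in the macaque gene order, with 0 protein-coding genes between the former pair and 1 between the latter. The other 9 clade B members, SERPINB2 among them, were detected on neither array.

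Among the families with over 2 members measured on both arrays, cystatins had the largest share past 2-fold (80%). Of 12 members, 5 were measured on both arrays, with a median difference of 1.68, and 4 of them were at least 2-fold higher in the pubertal culture. Among all genes, 7.32% were at least 2-fold higher. CST3 (cystatin C), a secreted inhibitor of cathepsins that Sertoli cells are known to make, had 3.47 in the pubertal and 1.57 in the infant culture, a 3.72-fold difference (log2 1.90, SE 0.20). CST9L, of a cystatin subgroup expressed in the testis, had 2.44 and -0.58 and was 8.12-fold higher (log2 3.02, SE 0.20). Its neighbour CST9 was detected on the pubertal array alone, at -2.08 against -5.26, which is at least 4.87-fold higher. No protein-coding gene lies between CST9 and CST9L in the macaque gene order, and 1 lies between CST3 and CST9. CST8 and CST11, which follow in the same cluster, were detected on neither array. The same held for CST1, CST2, CST5 and CST7.

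The other cystatins measured on both arrays were CSTA, CST6 and CSTB. CSTA (stefin A), an intracellular inhibitor, had 1.92 and 0.23, a 3.21-fold difference (log2 1.68, SE 0.20) from 1 probe, while its other probe was not detected (-6.49 and -6.69). Taking the median of all its probes gave a difference of 0.94, under 2-fold. CST6 (cystatin M), a secreted inhibitor of legumain and cathepsins, had -1.18 and -2.52 and was 2.54-fold higher (log2 1.35, SE 0.23), and its difference was 0.78 with normexp background correction. CSTB (stefin B) was the family's exception at 4.56 and 5.12, a difference of -0.56.

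Both members of the alpha-2-macroglobulin family were past 2-fold, in opposite directions. A2M, a large plasma inhibitor that cages proteases of every class and is also secreted by Sertoli cells, had 1.62 and 0.01 and was 3.05-fold higher in the pubertal culture (log2 1.61, SE 0.20). A2ML1, its relative known from skin, had -0.91 and 0.34 and was 2.37-fold lower (log2 -1.25, SE 0.21). With scaling on spike-in probes the difference of A2ML1 was -0.35, under 2-fold.

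The WAP family held the largest downward difference. SLPI (secretory leukocyte peptidase inhibitor), which blocks neutrophil elastase and is made by many epithelia, had -1.71 in the pubertal and 3.24 in the infant culture. That is 30.9-fold lower (log2 -4.95, SE 0.21) and ranked 6 from the lowest among the 14243 genes. The log2 difference was -4.30 with normexp background correction and -4.05 with scaling on spike-in probes. Its second probe passed detection in the infant culture alone, at 0.47 against -4.96, which is at least 27.1-fold lower. WFDC2, a secreted WAP protein of the male and female tract, went the other way with 1.19 and -0.72, a 3.76-fold difference (log2 1.91, SE 0.15), and its probes gave 1.68 and 2.14. PI3 (elafin), another elastase inhibitor, had -1.27 and -0.80 (difference -0.46). WFDC3 and WFDC1 had -0.18 and -0.25, and WFDC10B had 0.04.

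SLPI, WFDC2 and PI3 belong to 1 gene cluster in the macaque order, and probes of each are printed above. From WFDC5 to WFDC3 this cluster holds 16 members with 24 protein-coding genes between its ends. Of the 16, 5 were measured on both arrays and 8 were detected on neither, SPINLW1 among the latter, a coat protein of sperm. PI3 and SLPI have 1 protein-coding gene between them and SLPI and WFDC2 have 8. WFDC11 was detected on the pubertal array alone, at -1.54 against -6.45. Its only spot lies in an area of disturbed signal, where 11 of 17 neighbouring spots were at least 2-fold higher too, with a median difference of 2.83 among these neighbours. Its bound was 7.07-fold, and it has no value once such areas are left out. WFDC5 passed detection in the infant culture alone, at -3.68 against -6.10 (at least 1.52-fold lower).

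Of the 10 Kazal inhibitors, 7 were detected on neither array. SPINK2, known from the sperm acrosome where it restrains acrosin, had 4.06 in the pubertal and 1.91 in the infant culture, a 4.44-fold difference (log2 2.15, SE 0.20). Of the 7 germ cell markers measured on both arrays, 5 were at least 2-fold higher too and 1 (UCHL1, -1.52) was lower, with a median difference of 3.97, and their part in this difference was not tested. SPINK7 had 0.89 and 0.92, a difference of -0.03. SPINK5L3, which adjoins SPINK7 in the macaque order, was detected on the pubertal array alone, at -1.59 against -5.74, which is at least 6.84-fold higher. Among the Kunitz inhibitors, SPINT2, a membrane-bound inhibitor of hepatocyte growth factor activator and matriptase, had 6.45 and 6.38 (difference 0.07), while its relative SPINT1 was not detected (-4.32 and -4.42). The sign of the SPINT2 difference turned with scaling on the array median. SPINT3 passed detection in the infant culture alone, at -1.78 against -5.52, at least 5.68-fold lower in the pubertal culture. This rests on 1 of its probes, and the other was detected on neither array.

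**Figure D4:**
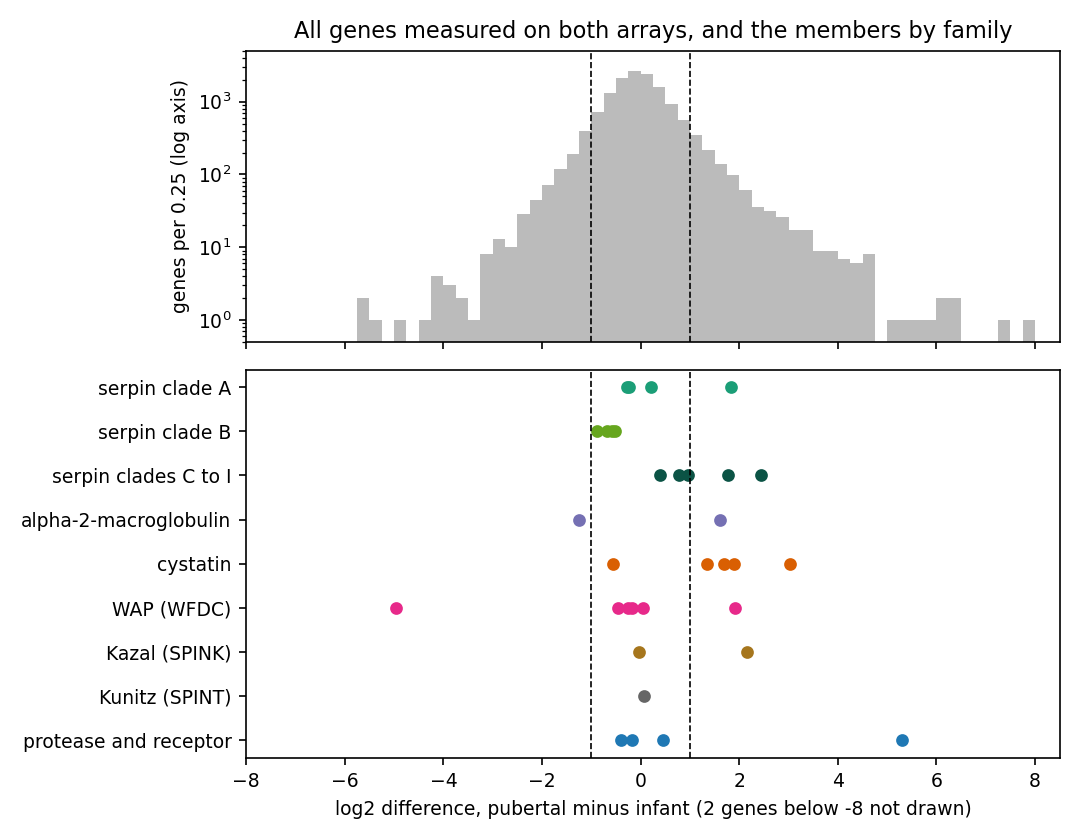
Top: number of genes per 0.25 of the log2 difference, pubertal minus infant, for the 14243 genes measured on both arrays (log vertical axis; 2 genes below -8 are not drawn). Bottom: 33 of the 34 members by family on the same horizontal axis (dashed lines: 2-fold). 4 of 5 cystatins lie to the right of the upper line, all 4 clade B serpins lie between the lines and below 0 (above 0 with scaling on spike-in probes), and SLPI and PRSS36 lie in the tails.

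Probes of one gene could be set beside each other for 7 members. All 7 members with several probes measured on both arrays had probes of 1 sign, with a median SD of 0.11 between probes and the widest gap for SERPINB9 (1.13). Of the 14 members past 2-fold, 11 rest on 1 spot per array, and none lies in an area of disturbed signal.

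The proteases that these inhibitors act on were described from lists of related genes. Beside the counts of each list stand 7.32% of all genes at least 2-fold higher and 6.32% lower. Of 12 cysteine proteases (cathepsins and legumain), targets of cystatins, 8 were measured on both arrays with a median of 0.14, 2 at least 2-fold higher and 0 lower. CTSL2 (cathepsin V) had the largest difference of them at 2.81, followed by CTSK at 1.16, and CTSB had -0.76. Of 27 genes of the plasmin and clotting proteases and their receptors on the array, 17 were measured on both, with a median of -0.25, 2 higher and 2 lower. PROS1 (protein S, a cofactor of protein C) had 1.33, ENO1 (enolase, which can bind plasminogen) -1.32 and F3 (tissue factor) -1.21. The median of that list turned positive (0.65) with scaling on spike-in probes. Of 12 membrane-bound or related serine proteases and kallikreins, 5 were measured on both, with 1 at least 2-fold lower. That was ST14 (matriptase), a target of SPINT2, at -1.08. The median of these 5 was 0.15. Medians of the cathepsins and of the membrane proteases turned slightly negative with scaling on the array median (-0.02 and -0.01).

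Protease inhibitors that the name rule does not take had a median difference of -0.22 over 24 of 31 genes, with 3 higher and 6 lower. TFPI2 and TFPI, Kunitz inhibitors of the tissue factor pathway, had -2.87 and -2.74, and KAL1 (anosmin, with a WAP domain) had 2.57. The list's median was 0.68 with scaling on spike-in probes. Serine proteases named PRSS or HTRA and the related TSP50 had a median of 0.58 over 11 of 17 genes, with 4 higher and 0 lower. PRSS21 (testisin, known from germ cells) had 3.18, PRSS22 2.78 and PRSS23 1.43.

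**Figure D5:**
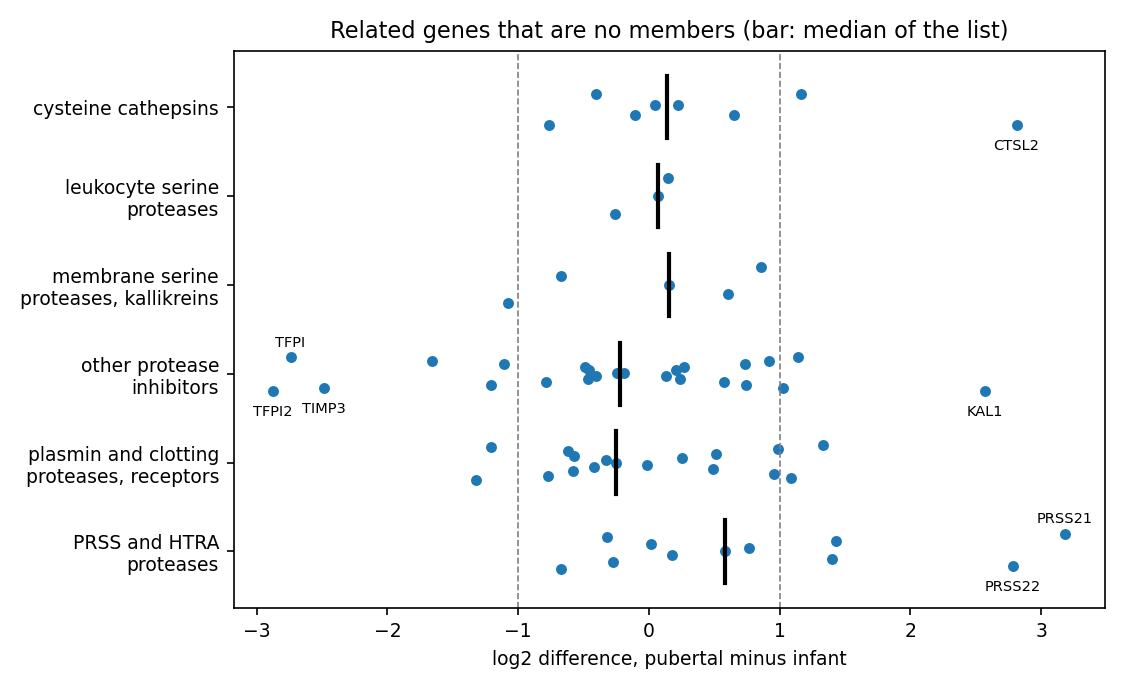
Genes of 6 lists of proteases and other inhibitors that are no members (horizontal axis: log2 difference, pubertal minus infant; points: genes measured on both arrays; black bar: median of the list; dashed lines: 2-fold). Genes past 4-fold carry their names. The medians lie between -0.25 and 0.58.

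Markers of other cell types differed between the cultures, and their part in these results was not tested. Beside the counts of all marker lists stand 7.32% of all genes at least 2-fold higher and 6.32% lower. All 16 Sertoli cell markers were detected on both arrays, with a summed level of 345 in the pubertal and 257 in the infant culture, in multiples of the 75th percentile signal, and a median difference of 0.57. Of these markers, 5 were at least 2-fold higher and 1 lower (INHBB, -1.31). A sum weighs bright probes most. In the pubertal culture the brightest were CLU (7.07, against 6.35 in the infant) and TF (6.29, against 2.98). Of 18 germ cell markers, 7 were measured on both arrays, 5 at least 2-fold higher and 1 lower (UCHL1, -1.52), with a median of 3.97 and summed levels of 74.9 and 40.8. UCHL1, at 3.58 in the pubertal and 5.10 in the infant culture, made up most of the infant sum. TKTL1, at 5.58 and -0.79, made up most of the pubertal sum. A further 5 germ cell markers were detected in the pubertal culture alone, while PRM1, PRM2, TNP1, ACRV1, STRA8 and NANOS2 were detected in neither. Of 9 macrophage markers, 6 were measured on both with a median of 1.65 (summed levels 5.06 and 1.16), and LYZ and CD74 were detected in neither. All 8 peritubular myoid cell markers were measured on both with a median of 1.32 (187 and 119). Of 7 endothelial markers, 3 were measured on both with a median of 0.99 (1.68 and 0.788), and CDH5, KDR and EMCN were detected in neither.

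Other marker lists had lower summed levels in the pubertal culture or were not detected. Of 9 Leydig cell markers, 8 were measured on both, with 3 lower past 2-fold, 0 higher, a median difference of 0.21 and summed levels of 50.5 in the pubertal and 154 in the infant culture. STAR and CYP17A1 had differences of -4.24 and -4.21, while LHCGR was detected in neither. STAR, at 6.65 in the infant and 2.41 in the pubertal culture, made up most of the infant sum. Beside SLPI, which many epithelia make, 9 markers of the excurrent duct epithelium were on the array. Of these, 5 were measured on both, with summed levels of 3.82 and 5.04 and a median difference of -0.58. PAX8 and CLDN4 had -1.46 and -1.68, CDH1 had 1.71, KRT7 and MUC1 were detected in the pubertal culture alone (at least 1.71-fold and 1.17-fold higher), and PAX2 and CRISP1 were detected in neither. None of the 7 neutrophil markers on the array was detected in either culture. Of 7 genes of liver-type secretion, APOA1 alone was measured, at a difference of -1.43.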

How the data were processed

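RNA labelled with Cy3 (Agilent Quick-Amp, after Trizol extraction, per the labels' protocols) was hybridised to 2 one-colour arrays of a human design. Spot intensity was deposited as scanner output of Agilent Feature Extraction 10.5.1.1, as the submitters' processing notes and the file headers say. The processed intensity used here had the background removed and spatial trends corrected within each array by the authors, per the file headers, and no scaling between arrays is recorded. Both arrays shared 1 slide. Monkey RNA binds a human probe less well where sequences differ, which lowers levels in a probe-specific way.

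Groups were taken from the sample titles. Outlier spots (96 pubertal, 91 infant) and control spots were left out. The log2 of the deposited processed signal minus the log2 of the array's 75th percentile (406.7 and 382.4 intensity units) was taken, spots of a probe were averaged, and the probes of a gene that passed detection on both arrays were averaged. Detection used the deposited background flags. The median SE of a gene's difference was 0.20. CST9L was taken as CST with a number. The number of arrays limits the precision. Code was tested on simulated data (Python 3.11.15, pandas 2.3.3, limma 3.58.1 for normexp). Members, gene lists and marker lists were chosen with earlier results of these data known. Values on each array are given for members past 2-fold, members detected on 1 array and 13 fixed genes of the plasminogen system and main families, and other members are given by family. From each list of proteases and other inhibitors, up to 3 genes with the largest differences are named. PLG, TSP50, PRTN3 and several cell type markers are named beyond that rule. A spot counted as disturbed where its neighbours shared a large difference (773 spots, 1.46%). The alternatives were other background corrections, scalings, filters, detection flags, probe and spot summaries, and fold thresholds. Gene order is that of a RefSeq macaque gene table (assembly T2T-MMU8v2.0). Values of 1 member and some sequences are not reported here.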

Additional observations from a re-analysis of the deposited data

How the results depend on the processing

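All 14 members past 2-fold kept their direction under the 13 alternatives of background, scaling, filter, flag and averaging, PRSS36, CST9L, SERPINE2 and SLPI among them. Under 2-fold came CST6 with normexp (0.78), A2ML1 with spike-in scaling (-0.35), which took PLAU past 2-fold (1.35), and CSTA with no filter or with the median of all probes (0.94). Members at least 2-fold higher numbered 11, and 16 with spike-in scaling, 15 with no filter or with the weaker flag, 13 at 1.5-fold, 4 at 4-fold and 10 to 12 otherwise. Members at least 2-fold lower numbered 3. They numbered 11 with no filter on dim probes, 7 with the weaker flag, 6 at 1.5-fold and 1 at 4-fold. Scaling on the array median and the brightest probe each gave 4, and spike-in scaling gave 2. At 1.5-fold, 15.04% of all genes were higher, beside 13 of 34 members, and 16.79% were lower, beside 6 of 34. The share of lower members at 1.5-fold was thus close to that of all genes. At 4-fold, 1.67% of all genes were higher and 0.857% lower. The share of upward calls was 78.6% and became 57.7% with no filter, 68.2% with the weaker flag and 88.9% with spike-in scaling. Among all 14243 genes, 1042 were higher and 900 lower at first, and 2081 and 1485 of 21495 genes with no filter. The weaker flag gave 1710 and 1363 of 17022 genes. Spike-in scaling gave 5524 higher and 144 lower of 14243 genes, beside 16 and 2 of 34 members. With no filter and with spike-in scaling, the upward share of the members was thus no higher than that of all genes. Calls in all genes rose too. Past 2-fold in either direction were 52.9% of 34 members against 39.8% of all genes with spike-in scaling, in place of 41.2% against 13.6%. With no filter the shares were 31.7% of 82 members against 16.6%, and with the weaker flag 46.8% of 47 members against 18.1%. The gap between members and all genes was thus narrower with spike-in scaling and with no filter. The median of the members (0.06) was -0.10 with scaling on the array median, which moved the median of all genes by -0.16, and 0.96 with spike-in scaling, which moved it by 0.90. Spike-in scaling also turned the sign of 13 members, all under 2-fold. The cause of these changes was not tested. No paired analysis was possible because the labels carry no replicate numbers and each group has 1 array. Signal over background limits what can be said of the 41 members detected on neither array. For these, no level and the match of the human probe to monkey RNA cannot be told apart.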

Other observations

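Proteases of leukocytes, which SLPI, PI3, SERPINB1 and SERPINB9 are known to block, were largely undetected. Of 10 such genes on the array, 3 were measured on both, GZMB, TPSB2 and CTSG, with differences of -0.26, 0.14 and 0.07, PRTN3 was detected on the pubertal array alone and 6 were detected on neither. The median of these 3 turned negative (-0.09) with scaling on the array median. PLG, the substrate of PLAU and PLAT, had a level of -2.34 in the pubertal and -2.01 in the infant culture. TSP50, a protease relative known from the testis, passed detection in the pubertal culture alone and was at least 4.98-fold higher. PLG and TSP50 were chosen after their values were seen.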
